A study of Danio rerio with 6 samples.

Results

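The libraries were made from GFP+ Müller glia (MG) sorted from zebrafish retinas. Of the 23510 genes in the count table, 56 were selected. They were lower after injury in wild type (Wt) fish. In injured mycb-/- fish they were higher than in retinas that had not been injured at all. They were selected on their measured values, in CPM, the usual scale on which each count is divided by its library's total. A gene had to average at least 2 CPM in uninjured Wt, to have a log2 difference of at most -0.8 between injured and uninjured Wt, to have a log2 difference of at least 0.5 between the injured mutant and uninjured Wt, and to be higher in both mutant libraries than in both uninjured libraries. Differences are of log2(mean CPM + 0.1). The rule leaves out opn1mw2, opn1mw4, gnb3b, rho, pde6a and rom1a, and the 480 genes that the study lists for cell division, ribosome biogenesis and protein synthesis. Because all 6 libraries chose the genes, the levels below are a description and carry no test. The comparisons share the uninjured or the injured Wt libraries.

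There were 3 groups of 2 libraries. Uninjured Wt MG came from retinas without injury, injured Wt MG from retinas taken 2 days after injury (2 dpi), and injured mutant MG from mycb-/- retinas at 2 dpi. Uninjured mycb-/- MG were not analysed here, so the mutant differs from uninjured Wt in both genotype and injury, and the parts of these in a difference cannot be told apart. All fish, the uninjured ones included, carried the gfap:GFP transgene, in which a glial promoter drives GFP, and per the study's methods they were adult males and females whose retinas were pooled before sorting. Injury was a series of needle pokes to each retina. The mycb allele is a germline deletion that shifts the reading frame. Its mRNA was not checked here, since the name table gives the symbol MYC to 2 identifiers without saying which of them is mycb. The treatment field of the injured Wt samples reads none, whereas their titles and source names say injured, and the titles were followed. Library totals ran from 47088844 to 64353562 counts. Nothing in the labels says that the 2 libraries of a group came from separate animals, so the spread between them may be technical.

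MG are radial glia that span the retina, support its neurons and, in fish, can reprogram after damage and divide to replace lost neurons. Photoreceptors, the cells that some of the selected genes are known from, catch light with an opsin, which activates transducin. Transducin activates a phosphodiesterase that lowers cyclic GMP and closes ion channels in the outer segment, a stack of membrane carried on a modified cilium. Cones and rods use separate sets of these proteins, and the cone opsins set the colour to which each cone responds.

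Of the 14180 genes that averaged at least 2 CPM in uninjured Wt, 3547 met the injury condition. Most of these were below the uninjured Wt level in the injured mutant. Their median log2 difference between mutant and uninjured Wt was -1.07, 2589 were at or below -0.5, 875 lay between -0.5 and 0.5, and 83 were at 0.5 or above. In 58 of the 83 both mutant libraries were above both uninjured libraries, and taking out opn1mw2 and opn1mw4 left the 56. Across all 14180 genes, both mutant libraries were above both uninjured ones for 25.2%. For the selected genes the median log2 difference was -1.01 for injury and 0.74 for mutant against uninjured Wt, where the medians over the 14180 genes were -0.13 and -0.18. Library scaling moves the second of these: with TMM scaling the median over all these genes rose by 0.12 and the median over the selected genes became 0.84.

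**Figure D1:**
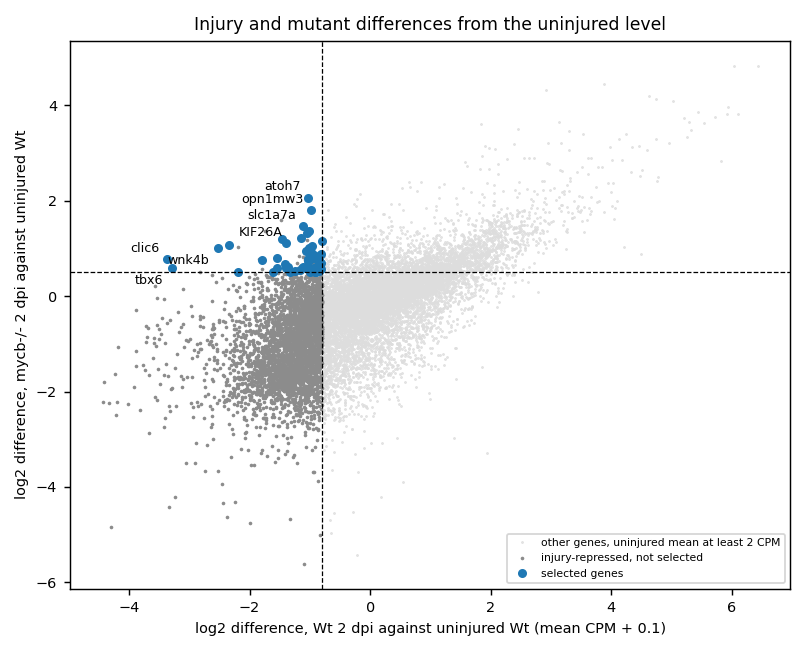
Log2 difference of mean CPM + 0.1 for injured Wt against uninjured Wt (x axis) and for injured mycb-/- against uninjured Wt (y axis), with 1 point per gene averaging at least 2 CPM in uninjured Wt. Dashed lines are the cut-offs of -0.8 and 0.5, and the 56 selected genes (blue) fill a corner that few of the 3547 injury-repressed genes reach.

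Among the selected genes is opn1mw3, which encodes an opsin of green-sensitive cones. Its levels were 319 and 349 CPM in uninjured Wt, 197 and 142 CPM in injured Wt and 1478 and 849 CPM in the mutant. It lay 1.97-fold lower in injured than in uninjured Wt on average, and 3.48-fold higher in the mutant than in uninjured Wt. The lower mutant library was still 2.43 times the higher uninjured library, the widest such gap among the 56 genes, and no groups overlapped.

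The 4 green opsin genes are consecutive in the gene order of the RefSeq annotation (assembly GRCz12tu), and reads shared between such near copies may have been split among them by the authors' counting, so each value is uncertain. Beside opn1mw3, opn1mw2 had 2936 and 5023 CPM in uninjured Wt, 1862 and 1976 CPM in injured Wt and 9869 and 8206 CPM in the mutant. The values of opn1mw4 were 426 and 371 CPM in uninjured Wt, 222 and 190.1 CPM in injured Wt and 767 and 526 CPM in the mutant. Both have the same pattern and are outside the 56 only because the rule names them. opn1mw1 had 1330.0 and 1977 CPM in uninjured Wt, 536 and 827 CPM in injured Wt and 1764 and 1106 CPM in the mutant, with 1 mutant library inside the uninjured range and 1 below it, and a log2 difference of -0.20. In zebrafish, six7 encodes a homeodomain factor required for green opsin expression. It had 231 and 337 CPM in uninjured Wt, 155 and 176 CPM in injured Wt and 538 and 348 CPM in the mutant, just short of the injury condition at -0.78.

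**Figure D2:**
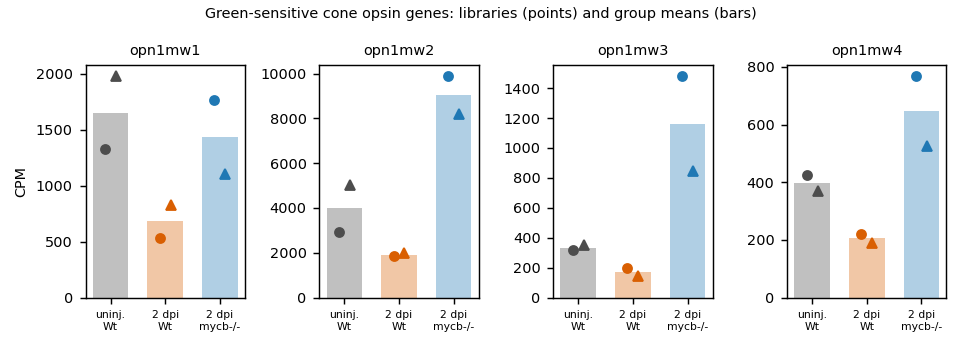
CPM of the 4 green-sensitive cone opsin genes in uninjured Wt, Wt at 2 dpi and mycb-/- at 2 dpi. Points are libraries (circle replicate 1, triangle replicate 2) and bars are group means. In opn1mw2, opn1mw3 and opn1mw4 both mutant libraries are above both uninjured libraries, and in opn1mw1 they are not.

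Other photoreceptor genes followed with smaller differences. The non-visual opsin gene opn6b had 208 and 278 CPM in uninjured Wt, 70.8 and 95.7 CPM in injured Wt and 528 and 319 CPM in the mutant. For tulp1b, a tubby-like protein gene whose mammalian relative TULP1 moves proteins to the outer segment, the values were 120.1 and 202 CPM in uninjured Wt, 72.01 and 72.00 CPM in injured Wt and 245 and 224 CPM in the mutant. The peripherin-like gene prph2la, of the family that shapes outer segment discs, had 15.1 and 12.2 CPM at 2 dpi in Wt against 25.9 and 22.6 CPM uninjured, and 44.2 and 34.4 CPM in mycb-/-. In each of these the injured Wt libraries were the lowest and the mutant libraries the highest, but for opn6b and tulp1b the lower mutant library was only 1.15 and 1.11 times the higher uninjured one.

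The unconventional myosin gene myo7ab, related to human MYO7A, the Usher syndrome gene, had 94.6 and 76.1 CPM in uninjured Wt, 38.5 and 50.9 CPM in injured Wt and 159 and 98.2 CPM in the mutant. PCDH15, another Usher gene, encodes a protocadherin and had 29.1 and 32.6 CPM in uninjured Wt, 8.83 and 22.1 CPM in injured Wt and 51.6 and 42.02 CPM in the mutant. For nxnl2, a thioredoxin-like gene whose mouse counterpart supports cone survival, the levels were 27.6 and 31.6 CPM in uninjured Wt, 8.997 and 10.3 CPM in injured Wt and 45.6 and 38.5 CPM in the mutant. aipl2, of the AIPL1 family, had 81.9 and 89.3 CPM in uninjured Wt, 35.6 and 55.1 CPM in injured Wt and 145 and 97.2 CPM in the mutant. Symbols in capitals are those of the name table, which uses human-style names and does not say which zebrafish copy is meant. These last genes lie near the mutant cut-off, with log2 differences from uninjured Wt of 0.59, 0.60, 0.50 and 0.50.

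Of the lists of photoreceptor genes, the 19 matched cone phototransduction genes held 1 of the 56, the 23 outer segment genes held 4 and the 24 rod phototransduction genes held none. Of all 14180 genes averaging at least 2 CPM in uninjured Wt, 56 were selected. The rule bars by name opn1mw2, opn1mw4 and gnb3b of the cone list, rom1a of the outer segment list and pde6a of the rod list. Of these, opn1mw2 and opn1mw4 met its other conditions, so the list counts are not comparable. Cone and rod genes were both low after injury in Wt but their medians ended on different sides of the uninjured level in the mutant. By edgeR's quasi-likelihood test, with a Benjamini-Hochberg adjusted p of at most 0.05 and a log2 fold change beyond 0.5, 15 of 19 cone genes and 24 of 24 rod genes were called lower with injury, where 17.4% of all 20329 genes tested were. Against injured Wt, 18 cone and 23 rod genes were called higher in the mutant, where 8.21% of all genes were. Against uninjured Wt, 7 cone and no rod genes were called higher (12.2% of all genes), and no cone and 5 rod genes lower (13.4%). The median fitted log2 fold change in that last comparison was 0.54 for cone and -0.49 for rod genes, where the median of all genes was 0.02. The lists were drawn up with earlier results of these libraries known, so the counts are not independent evidence of a direction.

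Of the rod genes named here, rho and gnat1 were below both uninjured libraries in the mutant, and saga was not. The levels of saga were 59.0 and 88.4 CPM in uninjured Wt and 74.0 and 69.7 CPM in the mutant, so these overlapped. The rod opsin gene rho, left out by the rule, had 7102 and 11965 CPM in uninjured Wt, 942 and 548 CPM in injured Wt and 5640.1 and 6391 CPM in the mutant. The rod transducin gene gnat1 had 1822 and 2728 CPM in uninjured Wt, 237 and 142 CPM in injured Wt and 1331 and 1129 CPM in the mutant, and its mutant libraries were below both uninjured ones. The cone transducin gene gnat2 had 6224 and 7919 CPM in uninjured Wt, 3884 and 4186 CPM in injured Wt and 9383 and 7037 CPM in the mutant, so its mutant and uninjured libraries overlapped.

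The transcription regulators among the 56 were led by NEUROD1, a basic helix-loop-helix factor used in photoreceptor differentiation. It had 588 and 773 CPM in uninjured Wt, 319 and 360.4 CPM in injured Wt and 1514 and 1121 CPM in the mutant, and no groups overlapped. The gene with the largest log2 difference between mutant and uninjured Wt, 2.07, was atoh7, which encodes a basic helix-loop-helix factor needed to make retinal ganglion cells. Its values were 2.57 and 3.03 CPM in uninjured Wt, 0.684 and 1.94 CPM in injured Wt and 16.9 and 7.21 CPM in the mutant, from raw counts of 142 and 169, then 44 and 107, then 795 and 359. The mutant libraries differ from each other more than 2-fold, and both stand above the uninjured ones. By the edgeR test described above, atoh7 was not called lower with injury (adjusted p 0.122).

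For nfat5b, which encodes a factor of the osmotic stress response, the levels were 17.1 and 18.3 CPM in uninjured Wt, 9.37 and 8.53 CPM in injured Wt and 36.5 and 28.1 CPM in the mutant. ppargc1a, a coactivator that drives mitochondrial gene expression, had 6.84 and 6.84 CPM in uninjured Wt, 2.005 and 4.56 CPM in injured Wt and 13.04 and 9.82 CPM in the mutant. The helix-loop-helix gene tal2 had 11.8 and 15.8 CPM in uninjured Wt, 9.23 and 6.25 CPM in injured Wt and 20.1 and 22.9 CPM in the mutant. In all 3 the mutant libraries cleared the uninjured ones by at least 1.27 times. The T-box gene tbx6, known from mesoderm, had 1.92 and 2.24 CPM in uninjured Wt, 0.249 and 0 CPM in injured Wt and 3.19 and 3.19 CPM in the mutant, with raw counts of 16 and 0 in injured Wt, so that its size of change rests on few reads.

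**Figure D3:**
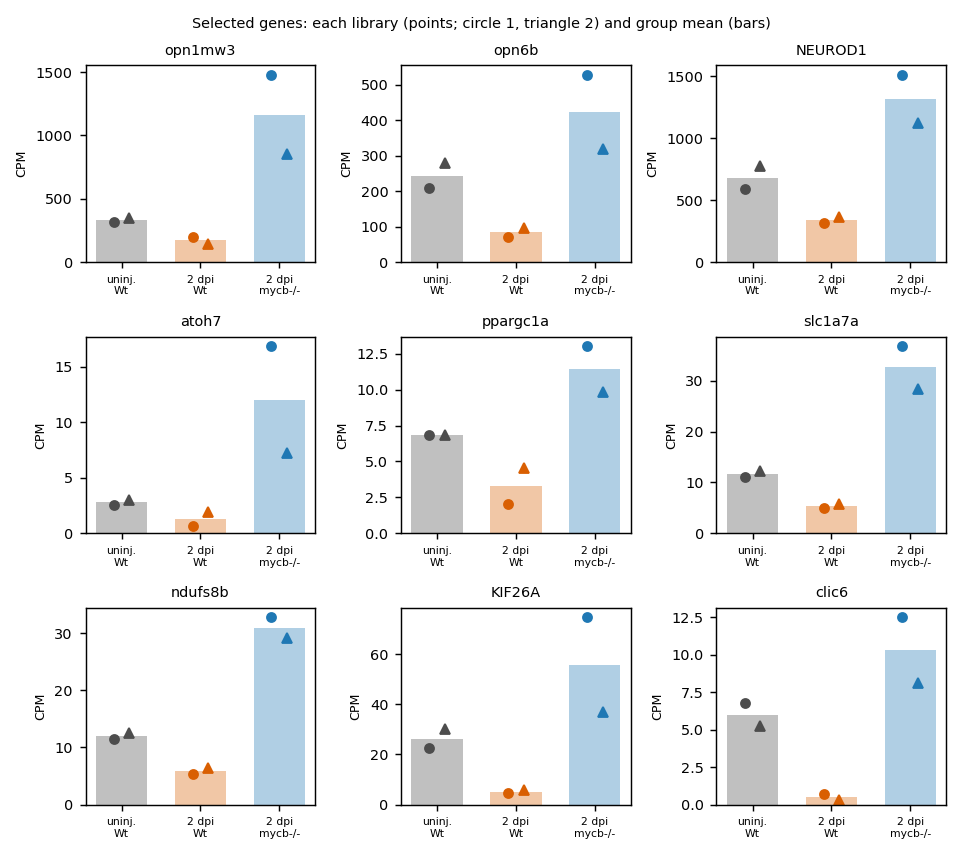
CPM of 9 selected genes in uninjured Wt, Wt at 2 dpi and mycb-/- at 2 dpi, each on its own linear axis from 0. Points are libraries (circle replicate 1, triangle replicate 2) and bars are group means; in every panel both injured Wt libraries are below, and both mutant libraries above, the uninjured pair.

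Signals, receptors and kinases made up a group of 6 genes. The most counted was dyrk3, a dual-specificity kinase gene, with 190.4 and 242 CPM in uninjured Wt, 108 and 109 CPM in injured Wt and 359.6 and 256 CPM in the mutant. FST, whose product follistatin binds and blocks activin, had 11.8 and 31.5 CPM in uninjured Wt, 11.1 and 10.4 CPM in injured Wt and 53.3 and 32.1 CPM in the mutant. Its uninjured libraries differ widely, and the lower one is close to the injured Wt pair. aplnra, a receptor for apelin peptides, had 2.64 and 2.32 CPM in uninjured Wt, 0.792 and 1.34 CPM in injured Wt and 7.62 and 4.24 CPM in the mutant, and FGFR3, a receptor for fibroblast growth factors, had 2.68 and 1.36 CPM in uninjured Wt, 1.17 and 1.07 CPM in injured Wt and 6.29 and 3.01 CPM in the mutant.

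The kinase gene wnk4b, of a family that regulates ion cotransport, had 6.86 and 8.62 CPM in uninjured Wt, 0.4196 and 2.11 CPM in injured Wt and 20.2 and 11.3 CPM in the mutant. SHH, which encodes the ligand Sonic hedgehog, had 2.39 and 2.999 CPM in uninjured Wt, 0.326 and 1.398 CPM in injured Wt and 4.74 and 3.46 CPM in the mutant, and it was counted between 21 and 223 times per library. In wnk4b and SHH the injured Wt libraries differ widely from each other although both are under the uninjured pair.

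Among genes for adhesion and the extracellular matrix, mmrn2a, a multimerin gene known from blood vessels, had 349 and 363 CPM in uninjured Wt, 191 and 200.3 CPM in injured Wt and 635 and 445 CPM in the mutant. The giant cadherin gene FAT4 had 27.5 and 24.4 CPM in uninjured Wt, 11.8 and 15.4 CPM in injured Wt and 47.1 and 46.9 CPM in the mutant, and its mutant libraries were nearly equal and at least 1.71 times the uninjured ones. For LRFN2, a synaptic adhesion gene, the values were 30.6 and 37.5 CPM in uninjured Wt, 17.2 and 20.2 CPM in injured Wt and 68.4 and 45.8 CPM in the mutant. CHSY1, a chondroitin sulfate synthase gene, had 48.3 and 49.00 CPM in uninjured Wt, 27.3 and 26.9 CPM in injured Wt and 75.05 and 65.6 CPM in the mutant. ESAM, an endothelial adhesion gene, had 6.05 and 6.81 CPM in uninjured Wt, 2.13 and 2.596 CPM in injured Wt and 11.2 and 9.38 CPM in the mutant. The tetraspanin gene TSPAN9 had 2.34 and 1.89 CPM in uninjured Wt, 0 and 0.763 CPM in injured Wt and 3.33 and 2.75 CPM in the mutant, with 0 and 42 counts in the injured Wt libraries. Beside mmrn2a, ESAM and aplnra, which are known from vessels, 5 endothelial and blood markers were matched, the haemoglobin genes hbaa1 and hbaa2 among them. The 5 markers summed to 68.9 and 96.3 CPM in uninjured Wt, 113 and 96.5 CPM in injured Wt and 56.3 and 66.4 CPM in the mutant. The endothelial cadherin gene cdh5 had 18.3 and 18.01 CPM in uninjured Wt, 10.1 and 6.14 CPM in injured Wt and 11.1 and 5.54 CPM in the mutant. For kdrl, also on this list, the values were 16.2 and 13.0 CPM in uninjured Wt, 17.4 and 11.6 CPM in injured Wt and 6.77 and 4.42 CPM in the mutant. By the edgeR test described above, 2 of these 5 markers were called lower and 1 higher in the mutant than in uninjured Wt, with a median log2 fold change of -0.16.

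Genes for transport and energy held some of the clearest separations. slc1a7a belongs to the family of glutamate transporters that in mammals sit on photoreceptor and bipolar terminals, and it had 11.03 and 12.3 CPM in uninjured Wt, 4.89 and 5.85 CPM in injured Wt and 36.8 and 28.5 CPM in the mutant. ndufs8b, a subunit gene of respiratory complex I, had 11.4 and 12.5 CPM in uninjured Wt, 5.299 and 6.39 CPM in injured Wt and 32.8 and 29.2 CPM in the mutant. The lower mutant library was 2.31 times the higher uninjured one for slc1a7a and 2.34 times for ndufs8b. The chloride channel-like gene clic6 fell furthest after injury, to 0.684 and 0.2905 CPM from 6.79 and 5.21 CPM, and had 12.5 and 8.14 CPM in the mutant. Its raw counts in injured Wt were 44 and 16, so the size of its fall rests on few reads. The other 4 were SLC22A23, SLC44A5, the metal transporter CNNM4 and the proton pump accessory gene atp6ap1la, with log2 differences from uninjured Wt of 0.59 to 0.95 in the mutant.

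Cytoskeletal genes were led by map1ab, a microtubule-associated protein gene, with 696 and 1197 CPM in uninjured Wt, 498 and 534 CPM in injured Wt and 1939.7 and 1419 CPM in the mutant. KIF26A, an atypical kinesin gene, had 22.5 and 30.1 CPM in uninjured Wt, 4.43 and 5.85 CPM in injured Wt and 74.7 and 36.8 CPM in the mutant, a 5.04-fold lower mean after injury. UACA had 19.01 and 22.9 CPM in uninjured Wt, 6.697 and 8.33 CPM in injured Wt and 65.6 and 30.8 CPM in the mutant. In all 3 the mutant replicate 1 library was well above replicate 2. palmda, a paralemmin-family gene, had 19.5 and 27.7 CPM in uninjured Wt, 11.7 and 6.01 CPM in injured Wt and 42.3 and 28.6 CPM in the mutant, and its lower mutant library was only 1.03 times the higher uninjured one. The others were the Cdc42 exchange factor gene DOCK9, the synaptic scaffold gene GRID2IP, cobll1a and gpsm2l, at log2 differences of 0.61 to 1.02 between mutant and uninjured Wt. gpsm2l and the selected transglutaminase gene tgm1l2 are next to each other in the RefSeq gene order, the only pair within 10 genes among the 35 selected genes that could be matched there.

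The remaining 15 genes have a less settled role or no name. The most counted gene of the 56, ppdpfa, had 1368 and 1746 CPM in uninjured Wt, 763 and 919 CPM in injured Wt and 2288 and 2247 CPM in the mutant. USP32, a deubiquitinating enzyme gene, had 151 and 151 CPM in uninjured Wt, 82.03 and 87.8 CPM in injured Wt and 236 and 211 CPM in the mutant. KCTD20 had 10.8 and 14.6 CPM in uninjured Wt, 5.16 and 7.04 CPM in injured Wt and 37.6 and 26.3 CPM in the mutant, with a log2 difference of 1.33 between mutant and uninjured Wt, the largest of the 15. For si:ch211-195o20.7 the values were 3.71 and 5.06 CPM in uninjured Wt, 1.31 and 1.92 CPM in injured Wt and 13.0 and 6.29 CPM in the mutant. For si:dkey-245f22.5 they were 6.26 and 8.65 CPM, then 3.26 and 4.32 CPM, then 14.4 and 16.7 CPM. The identifiers without a name were ENSDARG00000102288, with 81.4 and 89.6 CPM in uninjured Wt, 31.9 and 36.1 CPM in injured Wt and 148 and 95.9 CPM in the mutant, and ENSDARG00000117011, with 4.82 and 4.96 CPM in uninjured Wt, 2.64 and 2.34 CPM in injured Wt and 8.11 and 6.57 CPM in the mutant. cdr2b was the 1 gene of the 56 whose injured and uninjured Wt libraries overlapped: it had 10.6 and 15.1 CPM in uninjured Wt, 3.17 and 10.9 CPM in injured Wt and 21.7 and 17.9 CPM in the mutant.

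**Figure D4:**
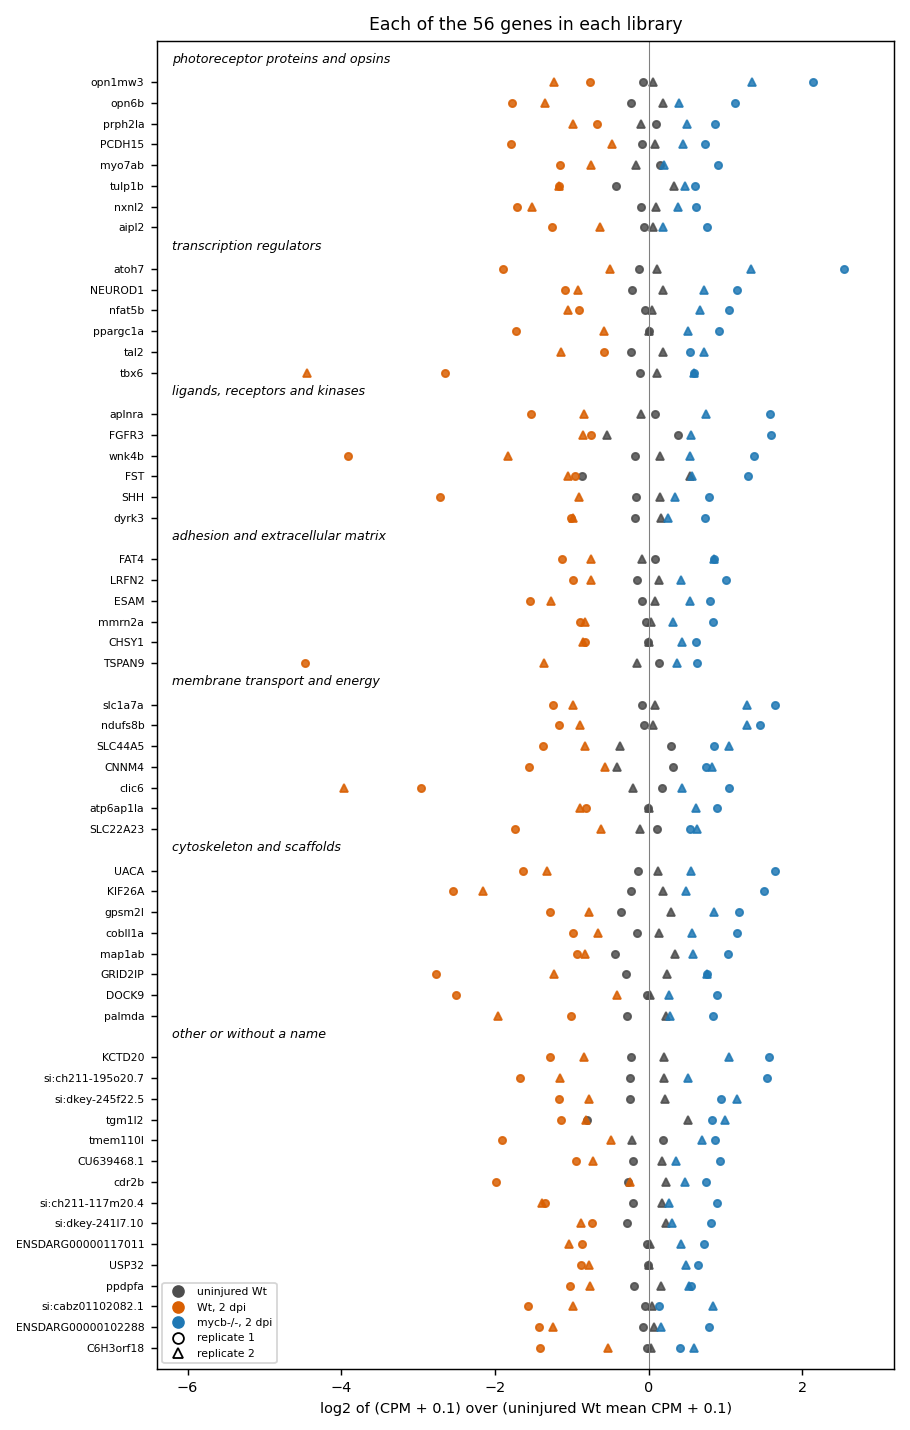
Log2 of CPM + 0.1 over the uninjured Wt mean for each of the 56 genes (rows, grouped by role) in each of the 6 libraries. Circles are replicate 1 and triangles replicate 2. Mutant libraries (blue) are to the right of the uninjured ones (grey) in every row, and injured Wt libraries (orange) are to the left of them in all rows but cdr2b.

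Both injured Wt libraries were below both uninjured libraries for 55 of the 56 genes, where 42.4% of the 14180 genes showed this. The rule used this contrast, so nothing is read from the count. Separation was narrow in many cases. The lower mutant library was less than 1.1 times the higher uninjured one in 9 genes and at least 1.5 times in 10, with a median of 1.299 and a range of 1.02 to 2.43. The mutant libraries were unequal: replicate 1 was higher than replicate 2 in 46 of the 56 genes and in 65% of the 14180 genes, with a median ratio of 1.31 in the selected genes and 1.11 in all. Replicate 1 exceeded replicate 2 by over 1.5 times in 16 of them, among them opn1mw3, atoh7, KIF26A and UACA.

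By the edgeR test described above, all 56 genes were tested. In injured against uninjured Wt 43 were called lower, with the background of 17.4% given above. Not called there were atoh7, aplnra, FGFR3, FST, SHH, TSPAN9, cdr2b, cobll1a, DOCK9, CNNM4, tgm1l2, tmem110l and si:dkey-241l7.10. In the mutant against injured Wt 55 were called higher (background 8.21%), the exception being TSPAN9, and in the mutant against uninjured Wt 28 were (background 12.2%). All 3 contrasts were used by the rule, so these counts are a description only. A set of 26 genes was called in all 3, among them opn1mw3, NEUROD1, slc1a7a, ndufs8b and KIF26A. The share of all genes called in all 3 was not counted, so nothing is read from the 26. None of the 6 signal, receptor and kinase genes was called against uninjured Wt. Single libraries move the first and the last of these counts: the injury count was 27 without uninjured Wt replicate 2 and 26 without injured Wt replicate 1, and the count against uninjured Wt was 8 without uninjured Wt replicate 1 and 12 without mutant replicate 1.

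At the mutant cut-off, the genes just inside were C6H3orf18 and aipl2, with log2 differences of 0.5003 and 0.5022, and just outside were atp11a and fat1b, with 0.4912 and 0.4849. At the injury cut-off, FGFR3 and si:dkey-241l7.10 were just inside, with -0.8006 and -0.8075, and cnga3a and arl13a just outside, with -0.796 and -0.794. At the level cut-off, FGFR3 and tbx6 averaged 2.02 and 2.08 CPM in uninjured Wt, while slco2b1 and NTF3 averaged 1.85 and 1.80 CPM. The cone channel gene cnga3a had 149.5 and 255 CPM in uninjured Wt and 379 and 268 CPM in the mutant, and missed only the injury condition.

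In the other gene lists most genes were called lower with injury and higher in the mutant against injured Wt, and fewer were called higher against uninjured Wt. Of the 23 matched genes for outer segments, 21 were called lower with injury, 23 higher in the mutant against injured Wt and 8 higher against uninjured Wt. For the 20 matched transcription and chromatin genes the counts were 17, 18 and 6, and for the 32 synapse, secretion and transport genes 29, 29 and 5, with 3 lower against uninjured Wt. The 18 cytoskeletal genes gave 15, 18 and 4, the 16 kinases and phosphatases 16, 16 and 1, and the 11 guidance and adhesion genes 10, 11 and 0. The 19 cilium genes gave 12, 17 and 3, the 18 mitochondrial genes 16, 15 and 1, with 2 lower against uninjured Wt, and the 26 genes of non-visual opsins, melatonin synthesis and the clock 15, 15 and 4, with 5 lower. Of all genes, 17.4% were called lower with injury and 8.21% higher in the mutant against injured Wt. Against uninjured Wt, 12.2% of all genes were called higher and 13.4% lower. The kinase, guidance and mitochondrial counts are below the 12.2%. The cilium, synapse and clock list counts are close to it, and the outer segment, transcription and cytoskeletal counts are above it. Many of these genes were also put on the lists with these libraries' results known.

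The levels of cell type markers differed between the groups too, in list-specific directions. The libraries held much photoreceptor RNA, and whether it came from MG or from other cells sorted with them was not tested. The 19 cone genes summed to 65127 and 79647 CPM in uninjured Wt, 36090.0 and 39696 CPM in injured Wt and 97122 and 84261 CPM in the mutant. The 56 selected genes summed to 4895 and 6302 CPM, then 2692 and 3021 CPM, then 11031 and 8440.1 CPM. The 24 rod genes summed to 8826 and 11565 CPM, then 2755 and 2506 CPM, then 8247 and 6924 CPM. The cone sums were lowest in injured Wt and highest in the mutant. The rule sets that order for the selected genes, and opn1mw3 is in both sums, so nothing is read from the match. The rod sums in the mutant were below both uninjured ones.

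The summed glial markers were highest in injured Wt. The 9 matched MG markers summed to 5896 and 4267 CPM in uninjured Wt, 15343 and 14500.0 CPM in injured Wt and 3433 and 4226 CPM in the mutant. gfap, whose promoter drives the GFP used for sorting, had 210.4 and 155 CPM in uninjured Wt, 858 and 734 CPM in injured Wt and 162 and 219 CPM in the mutant, so the defining marker is present in all libraries and its mutant libraries overlapped the uninjured ones. Of the 8 MG markers tested, 6 were called higher with injury, where 3904 of all 20329 genes were. In the mutant against injured Wt, 7 were called lower and 1 higher, with a median log2 fold change of -1.785. There, 2483 of all genes were called lower. Against uninjured Wt, 2 were called higher and 2 lower in the mutant, with a median log2 fold change of 0.17. The glutamine synthetase gene glulb had 246 and 133 CPM in uninjured Wt, 849.9 and 789.5 CPM in injured Wt and 151 and 274 CPM in the mutant. Because a library's counts are shared out among its RNAs, fewer cells of a type and less RNA per cell cannot be told apart in these bulk samples.

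The 7 matched amacrine markers summed to 3025 and 2539 CPM in uninjured Wt, 1188 and 1077 CPM in injured Wt and 792 and 806 CPM in the mutant. For the 7 bipolar markers the sums were 1306 and 1006 CPM in uninjured Wt, 887 and 709 CPM in injured Wt and 466 and 409 CPM in the mutant, and for the 7 ganglion cell markers 445 and 533 CPM in uninjured Wt, 162 and 212 CPM in injured Wt and 241 and 246 CPM in the mutant. All 3 sums were lower in the mutant than in uninjured Wt, and 6, 6 and 2 of the 7 markers were called lower there, where 13.4% of all genes were. The 14 markers of microglia and macrophages summed to 43.2 and 55.6 CPM uninjured, 79.3 and 126 CPM in injured Wt and 219 and 187 CPM in the mutant, and those of the pigment epithelium (4) to 30.5 and 14.9, 89.7 and 166 and 337 and 247 CPM. Of these, 8 of the 14 and 3 of the 4 were called higher in the mutant than in uninjured Wt, where 12.2% of all genes were. No matched marker of these lists was at 0 in every library. The part of the shifts in cone, glial and other markers in the levels of the 56 genes was not tested.

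**Figure D5:**
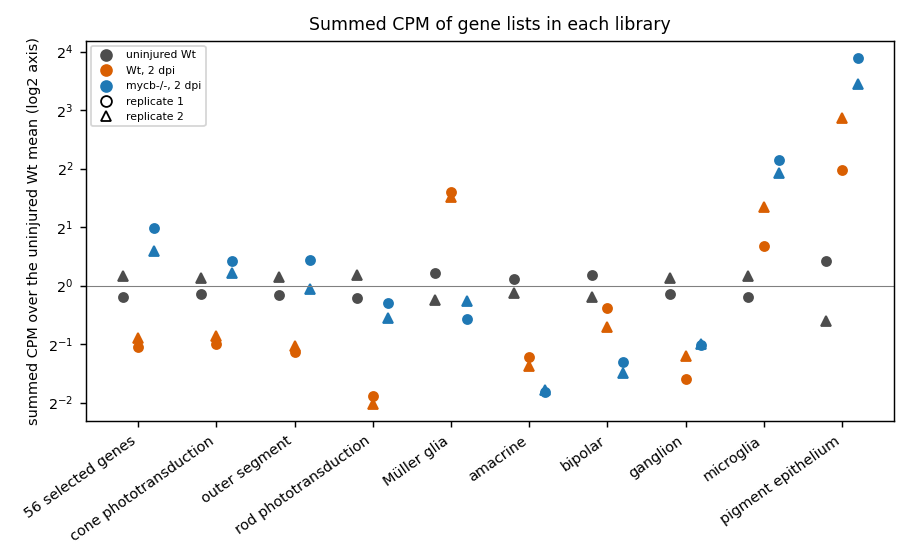
Summed CPM of each gene list in each library, divided by the mean of the 2 uninjured Wt libraries (log2 axis; circle replicate 1, triangle replicate 2). The selected genes, for which the rule sets it, and the cone list are below 1 in injured Wt and above 1 in the mutant. The rod list, which lacks rho, is below 1 in both, and the Müller glia list is above 1 in injured Wt and below 1 in the mutant.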

How the data were processed

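RNA was sequenced from GFP+ MG in 6 libraries, 2 per group. The deposited values are counts per gene, whole numbers for 23510 Ensembl identifiers; the submitters' processing notes name cutadapt 2.3, FastQC 0.11.8, STAR 2.7.8a, RSEM 1.3.3 and DESeq2, so the counts may be rounded estimates in which reads shared by similar genes are split. The submitters' notes list 2 builds, the human GRCh38 and the zebrafish GRCz11. The study's methods name only the zebrafish build.

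The rule was applied to CPM from library totals, with a pseudocount of 0.1 CPM. Tests used edgeR 4.0.16 in R 4.3.3: TMM scaling, filterByExpr, 1 quasi-likelihood fit to all 6 libraries, Benjamini-Hochberg over all genes, called at an adjusted p of at most 0.05 and a log2 fold change beyond 0.5, the study's cut-offs without its FPKM minimum. On simulated data for mutant against injured Wt (19624 genes), 43% of genes changed by 1 log2 unit and 76% of those changed by 2 were called. Of the unchanged genes, 5 were called. The simulated spread depended on a gene's level alone, and genes with very low expected counts were not changed. These rates may therefore not hold for the real genes, least of all those with few counts. Alternatives were RLE, library-size or reduced TMM scaling, no filter, DESeq2 1.42.0, a replicate block, the compared groups alone, other cut-offs and each library left out.

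Names came from the study's gene table, whose 1182 rows each matched 1 identifier when its fold changes were recomputed, used for pairing only, and otherwise from a name table covering 21982 identifiers. The second source was not foreseen in the plan. Genes were named by rule: the 12 with the highest mean CPM, the 12 with the largest log2 difference between mutant and uninjured Wt, all on a gene list, and those beside each cut-off. Others, such as wnk4b, SHH, FST and ESAM, were named after their values were seen. The members and lists were chosen with earlier results of these data known, and the role groups were drawn up after the members were listed. No sequences are given.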

Additional observations from a re-analysis of the deposited data

How the results depend on the processing

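The rule gave 101 genes with TMM scaling and 130 with DESeq2 size factors, and each of these sets held 55 of the 56 genes, 54.5% and 42.3% of its content. It gave 158 without the minimum level, and between 44 and 177 genes with 1 library left out, the highest without mutant replicate 2 and the lowest without mutant replicate 1, when 33 of the 56 remained. Without injured Wt replicate 2 it gave 94. The rule fixes the sign of the median differences of the 56 genes, so their sign is no sign of stability. With 1 library left out the injury median ran from -1.27 to -0.89 and the mutant median from 0.54 to 0.86. With 1 library left out, 26 to 44 of the 56 were called lower with injury (43 with all), 47 to 54 were called higher against injured Wt (55 with all) and 8 to 33 were called higher against uninjured Wt (28 with all). Leaving out a library leaves its group with 1, whose spread is taken from the other groups. The shares of all genes called in those fits were not counted, so their counts have no background beside them. Without a filter on low counts, 44 of the 56 were called higher against uninjured Wt, where 3022 of all 23510 genes were. In the mutant against injured Wt, scaling moved the split of all calls: 1668 genes were called higher and 2483 lower with TMM, 1903 and 2131 with RLE, and 1197 and 3049 with library size alone. With a replicate block 45, 55 and 28 of the 56 genes were called in the 3 comparisons. In the same directions 3579, 1705 and 2491 of all 20329 genes were. Deviations of same-numbered libraries correlated at -0.0075, -0.044 and 0.018 across 20329 genes, so no pairing by number was seen. These deviations are noisy, with standard deviations of 1.01 to 1.17 log2 units between replicates, so a pairing is not excluded. With a mutant or uninjured library left out, the rule's condition on separate libraries covered only those that remained, which makes it easier to meet. Beyond this, the cause of the changes in these counts was not tested. Each group has 2 libraries, which limits precision. In 12 of the 56 genes at least 1 library had under 100 counts, among them tbx6, TSPAN9, SHH, clic6 and wnk4b, which limits it further.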

Other observations

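A further 25 genes met the level and both difference conditions, but their mutant and uninjured libraries overlapped. In 23 of them mutant replicate 1 was above both uninjured libraries, and in 2 it was mutant replicate 2. The carnosine dipeptidase gene cndp1 had 107 and 20.7 CPM in the mutant and 24.8 and 17.3 CPM in uninjured Wt. The kinase gene dyrk4, a relative of the selected dyrk3, had 306 and 129 CPM in the mutant and 105 and 136 CPM in uninjured Wt. For the phosphatase gene PPEF2, known from photoreceptors, the values were 144 and 72.7 CPM and 73.9 and 65.1 CPM, and for the forkhead gene foxq2, required in zebrafish for blue cone opsin expression, 5.12 and 1.81 CPM and 1.52 and 2.84 CPM. In each of these 4 genes mutant replicate 1 alone was above both uninjured libraries.

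The non-visual opsin gene opn6a, a relative of the selected opn6b, missed the injury condition. It had 62.7 and 82.8 CPM in uninjured Wt, 37.2 and 59.2 CPM in injured Wt and 178 and 222 CPM in the mutant, a log2 difference of 1.46 between mutant and uninjured Wt. These genes were named after their values were seen.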
